A study of Mus musculus with 15 samples.

Results

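The genes described here encode the proteoglycans and link proteins of the perineuronal matrix, measured in RNA bound to ribosomes that were tagged in Purkinje cells of the mouse cerebellum. They are the 4 lecticans Acan (aggrecan), Bcan (brevican), Ncan (neurocan) and Vcan (versican), the link proteins Hapln1, Hapln2 and Hapln4, and Tnr (tenascin-R). These 8 genes were taken by name from the 19500 genes that the array annotation names with a single symbol, and each has 1 probe set. All 8 were tested, and none was removed by a filter on low signal.

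Lecticans are chondroitin sulfate proteoglycans that bind the long sugar chain hyaluronan at one end. Link proteins lock that bond, and tenascin-R ties the other ends of several lecticans together, so that the parts form a mesh on the surface of neurons. In the adult cerebellum this mesh is known from the neurons of the deep nuclei, which receive the axon terminals of Purkinje cells, and looser forms surround synapses and nodes of Ranvier. During brain development the juvenile matrix, rich in neurocan and some forms of versican, is known to give way to an adult matrix with more aggrecan and link protein.

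The mice carried the transgene Tg(Pcp2-L10a-Egfp), in which the promoter of Pcp2 drives a ribosomal protein, L10a, fused to a green fluorescent protein. Tagged ribosomes and their RNA were pulled from cerebellar homogenate with antibody beads, a method called TRAP, after homogenisation in a buffer with cycloheximide, which holds ribosomes on the RNA. The groups are P0, P7, P15, P21 and P56 (days after birth), with 3 arrays at each age and the same transgene in all 15 samples. Cerebella were pooled for each preparation, and neither RNA of the whole cerebellum nor a pull-down from mice without the transgene was analysed here, so a level here says nothing of enrichment in the pull-down. Values are log2 signals, and a log2 change of 1 means a doubling of signal. Differences were tested with limma across all 22092 probe sets, and a change was called at a Benjamini-Hochberg adjusted p under 0.05. Whether the 3 replicates of an age were separate pools is not stated in the labels, and the p-values cover the spread among the replicates, which may be technical. The smallest p that an exact permutation test allows with 3 replicates on each side is 0.1, and every adjusted p rests on the spread that limma pools over arrays and probe sets.

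Array medians lay between 7.59 and 7.93, and 2 arrays of an age correlated at 0.994 to 0.999. No background level is given, so a signal under the lower quartile of its array (5.86 to 6.01) is not shown to be above background. Pcp2, whose promoter drives the tag, averaged 13.16 ± 0.01 at P7 and 8.53 ± 0.07 at P0 (SD, n = 3), and its log2 change was 4.63 (SE 0.06, limma adjusted p 2.78e-19). Of 10 Purkinje cell markers, 9 were measured, and their mean level was 8.44 to 8.50 on the P0 arrays and 13.14 to 13.44 on all later arrays. How much tagged ribosome was captured is not recorded in the files, so a difference from P0 in capture and one in expression cannot be told apart. In bulk RNA, fewer cells of a type and less RNA per cell cannot be told apart either.

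Over the whole period the members split in opposite directions. The lecticans Ncan, Vcan and Bcan, the link protein Hapln1 and Tnr were lower at P56 than at P0, and the link proteins Hapln4 and Hapln2 were higher. Acan, the eighth gene, was not called between those ages and stood highest at P21. For Ncan, Vcan, Bcan and Tnr the largest falls came in the first week and between P21 and P56, and 6 of the 8 genes had their lowest mean at P56. The share of all probe sets with their lowest mean at P56 was not counted. Array medians averaged 7.60 at P56 and 7.79 to 7.92 at the earlier ages. All 8 genes differed between ages by the moderated F-test (limma adjusted p 1.92e-17 to 6.02e-07), as did 81.6% of all probe sets.

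**Figure D1:**
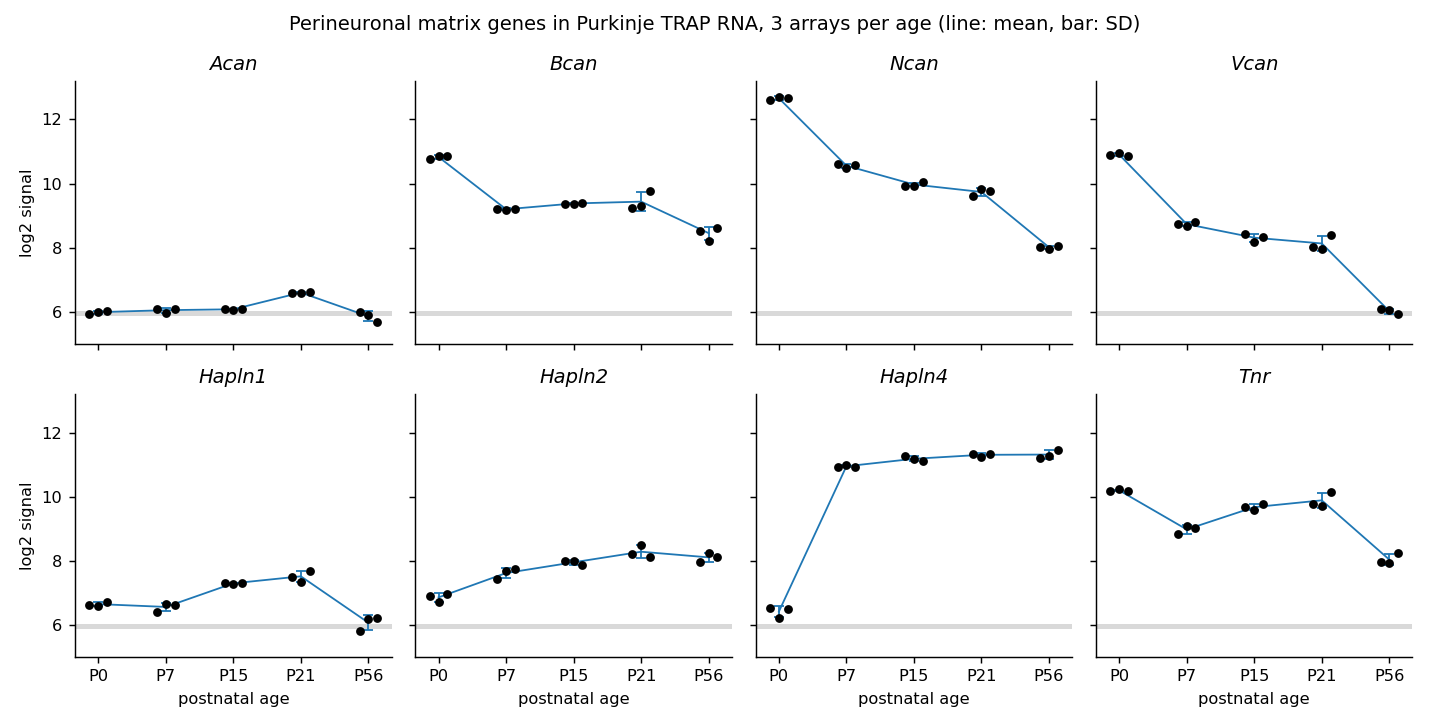
Log2 signal of each of the 8 genes (vertical axis) at the 5 ages (horizontal axis). Points are single arrays, the line joins the means, bars are the SD over 3 arrays, and the grey band spans the lower quartiles of the arrays (5.86 to 6.01). Ncan and Vcan descend from left to right, Hapln4 climbs between P0 and P7 and then stays near 11, and Acan lies close to the band except at P21.

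Neurocan is a lectican made by neurons and astrocytes, most abundantly in the young brain. Its signal was 12.60, 12.71 and 12.68 on the P0 arrays, 10.60, 10.48 and 10.59 at P7, 9.94, 9.94 and 10.04 at P15, 9.61, 9.83 and 9.78 at P21, and 8.01, 7.97 and 8.05 at P56. No array of any age overlapped those of another age. Ncan fell in each of the 4 steps, with log2 changes of −2.11 at P7 against P0, −0.59 at P15 against P7, −0.23 at P21 against P15 and −1.73 at P56 against P21 (SE 0.07 each). The smallest of these steps, P21 against P15 (limma adjusted p 0.0289), rested on single arrays. It was −0.25 without P15 replicate 1 (adjusted p 0.0544), −0.20 without P15 replicate 3 (0.114) and −0.17 without P21 replicate 1 (0.128). The call was also lost with only those ages fitted (limma adjusted p 0.0844). Over the whole period Ncan was 25.2-fold lower at P56 than at P0, with a log2 change of −4.65 (limma adjusted p 1.54e-18, SE 0.07).

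Versican, a lectican of migrating and immature cells and of the oligodendrocyte lineage, followed a similar course. Its arrays gave 10.88, 10.97 and 10.87 at P0, 8.73, 8.66 and 8.81 at P7, 8.41, 8.17 and 8.35 at P15, 8.04, 7.97 and 8.39 at P21, and 6.07, 6.05 and 5.93 at P56. Every P56 array lay below every earlier array, and 1 of the 3 was under the lower quartile of its array, so the size of the last fall is uncertain. Vcan fell in 3 steps, with log2 changes of −2.17 at P7 against P0, −0.42 at P15 against P7 and −2.11 at P56 against P21 (SE 0.10 each). The change of −0.18 at P21 against P15 was not called (limma adjusted p 0.233), but without P21 replicate 3 it was −0.31 and was called (adjusted p 0.0207). At P56 against P0 the log2 change was −4.89 (SE 0.10, limma adjusted p 3.51e-17).

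Brevican, the smallest lectican and one of the main ones of the adult brain, fell in the first week, held its level and fell again. It gave 10.77, 10.85 and 10.87 at P0, 9.21, 9.17 and 9.22 at P7, 9.36, 9.37 and 9.41 at P15, 9.23, 9.31 and 9.77 at P21, and 8.53, 8.22 and 8.61 at P56. The P0 arrays were the highest and the P56 arrays the lowest, with no overlap with the ages between. Bcan fell by 1.63 at P7 against P0 (limma adjusted p 9.53e-10) and fell by 0.98 at P56 against P21 (adjusted p 1.43e-06), with an SE of 0.12 for each. The steps between were 0.18 and 0.06 and were not called (adjusted p 0.321 and 0.828), and the second of them was −0.11 without P21 replicate 3. The P15 arrays all lay above the P7 arrays, and that step was called when only those ages were fitted (adjusted p 0.0174). In the order of levels P0 came first and P56 last, and no call separated P21 from P15 or P15 from P7. At P21 Bcan was still lower than at P0, by −1.39 (SE 0.12, limma adjusted p 7.41e-09). Of all probe sets, 29.5% were called lower at P21 than at P0.

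Within arrays, the signal of Bcan relative to Ncan shifted by age. The difference Bcan minus Ncan averaged −1.83 at P0, −1.36 at P7, −0.59 at P15, −0.30 at P21 and 0.44 at P56 (SD 0.03, 0.04, 0.04, 0.27 and 0.17, n = 3 each). Because the probe sets bind with unequal strength, only the shift between ages can be read from these values, not which of the genes is the more abundant.

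The promoters of the 3 lecticans that were lower at P56 than at P0 are shown so that their sequences can be read beside these falls. Each sequence is the 250 bases before the gene start in the RefSeq table for GRCm38.p6, read 5′ to 3′ on the strand of the gene, which is the minus strand for all 3. The windows are chr8:70120845-70121094 for Ncan, chr13:89742513-89742762 for Vcan and chr3:88000357-88000606 for Bcan, and all 3 reach into the annotated span of their gene, which has a more distal start. All 250 bases of the Vcan and Bcan windows lie inside that span, as do the last 19 bases of the Ncan window. Capitals mark a match to a searched motif.
Ncan: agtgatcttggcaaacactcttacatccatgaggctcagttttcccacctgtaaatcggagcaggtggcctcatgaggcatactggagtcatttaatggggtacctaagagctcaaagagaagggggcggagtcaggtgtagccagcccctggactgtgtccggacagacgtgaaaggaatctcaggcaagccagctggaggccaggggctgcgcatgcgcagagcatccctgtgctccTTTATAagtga
Vcan: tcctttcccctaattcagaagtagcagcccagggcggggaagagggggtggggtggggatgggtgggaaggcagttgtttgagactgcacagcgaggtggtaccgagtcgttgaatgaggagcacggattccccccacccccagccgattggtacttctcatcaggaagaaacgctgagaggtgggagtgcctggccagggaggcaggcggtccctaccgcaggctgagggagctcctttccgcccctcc
Bcan: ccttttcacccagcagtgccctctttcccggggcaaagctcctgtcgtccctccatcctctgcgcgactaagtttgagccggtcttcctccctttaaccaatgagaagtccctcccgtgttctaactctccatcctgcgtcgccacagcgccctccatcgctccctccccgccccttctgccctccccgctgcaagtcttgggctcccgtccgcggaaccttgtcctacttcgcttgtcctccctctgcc

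The windows were searched on both strands for AGGTCA, the hexamer bound by nuclear receptors such as Rora, for ACAAAG, a core bound by Sox factors, and for TATAAA, the TATA box. None of these motifs overlaps another in these windows. The Ncan window holds TATAAA on the opposite strand, printed as TTTATA, 11 to 6 bases before the start that the table uses and inside the annotated span of Ncan, and the Vcan and Bcan windows hold no match. Of 32851 promoters in the table cut to the same 250 bases, 14.0% hold AGGTCA, 16.5% hold ACAAAG and 12.4% hold TATAAA. The GC content was 54.4% for Ncan, 62.4% for Vcan and 62.0% for Bcan, against a median of 52.4% over all promoters. A match describes these letters only.

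Aggrecan, the lectican that defines dense perineuronal nets in the adult brain, had a low signal throughout and a single high age. Its arrays gave 5.94, 6.005 and 6.01 at P0, 6.09, 5.96 and 6.10 at P7, 6.09, 6.05 and 6.09 at P15, 6.58, 6.60 and 6.62 at P21, and 5.99, 5.90 and 5.68 at P56. Only the P21 arrays stood apart from those of all other ages, and all 3 P56 arrays and 1 P0 array were under the lower quartile. Acan rose by 0.52 at P21 against P15 (SE 0.07, limma adjusted p 0.000117) and fell by 0.74 at P56 against P21 (SE 0.07, adjusted p 1.94e-07).

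Between the other ages the level of Acan differed little. The change was 0.06 at P7 against P0, 0.03 at P15 against P7 and −0.13 at P56 against P0 (limma adjusted p 0.489, 0.871 and 0.122), none of them called. The first of these has a 95% interval of −0.09 to 0.22. The change at P15 against P7 was −0.02 without P7 replicate 2, and that at P56 against P0 was called without P56 replicate 1 (−0.19, adjusted p 0.0277). With the median of each array set to 0 the change at P56 against P0 was 0.19 (adjusted p 0.0217), so its direction depends on the scaling. Acan was lower at P56 than at P15, by −0.22 (SE 0.07, limma adjusted p 0.0182), and the arrays of these ages did not overlap. This difference was not computed under the other settings. It was also lower at P56 than at P7, by −0.19 (SE 0.07, adjusted p 0.0339). That call was lost without P7 replicate 1 (−0.17, adjusted p 0.104), P7 replicate 3 (−0.17, 0.112) or P56 replicate 3 (−0.11, 0.182), and the change was 0.07 with array medians set to 0. It was also lost with array weights (adjusted p 0.0697), with a trended and robust prior (0.0597) and with only those ages fitted (0.105).

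Hapln4, a link protein known from the synapses that Purkinje cells form in the deep cerebellar nuclei, had the largest rise among the members. Its signal was 6.54, 6.21 and 6.48 at P0, 10.93, 10.99 and 10.92 at P7, 11.26, 11.19 and 11.10 at P15, 11.33, 11.25 and 11.33 at P21, and 11.21, 11.27 and 11.46 at P56. The P0 arrays lay just above the lower quartile and far below all later arrays. Hapln4 rose by 4.54 at P7 against P0 (SE 0.09, limma adjusted p 5.81e-17), a 23.2-fold difference. That step was close in size to the 4.63 of Pcp2, whose promoter drives the tag. The 9 measured Purkinje cell markers all rose in it, with a median change of 4.39, where 33.6% of all probe sets were called higher. Their rises ranged from Calb1 (10.93 to 13.36) to Ppp1r17 (5.06, under the lower quartile, to 12.99). The part of capture in the step of Hapln4 was not tested.

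After P7 Hapln4 changed little. The change at P15 against P7 was 0.23 (SE 0.09, limma adjusted p 0.0601) and was not called, and those of 0.12 at P21 against P15 and 0.01 at P56 against P21 were not called either (adjusted p 0.391 and 0.946). The P15 against P7 change kept its value of 0.23 and was called without P0 replicate 2, P56 replicate 1 or P56 replicate 3 (adjusted p 0.0313, 0.0493 and 0.0401). It was also called under 7 of 12 other settings, at 0.22 to 0.30 (adjusted p 0.00867 to 0.0408). The last step was −0.02 without P21 replicate 2 and −0.06 without P56 replicate 3. With array medians set to 0 it was 0.24 and called (adjusted p 0.0183). At P56 Hapln4 was higher than at P7, by 0.37 (SE 0.09, limma adjusted p 0.00151), and higher than at P0 by 4.90 (SE 0.09, adjusted p 1.03e-17), a 29.9-fold difference.

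Hapln2 is a link protein of nodes of Ranvier that is made by oligodendrocytes. Its arrays gave 6.89, 6.70 and 6.97 at P0, 7.43, 7.68 and 7.73 at P7, 7.99, 7.997 and 7.86 at P15, 8.22, 8.50 and 8.12 at P21, and 7.95, 8.25 and 8.10 at P56. No array overlapped between P0, P7 and the 3 later ages, while the P56 arrays overlapped those of P15 and P21. Hapln2 rose by 0.76 at P7 against P0 (SE 0.11, limma adjusted p 7.96e-06) and was 1.25 higher at P56 than at P0 (adjusted p 1.11e-08).

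The smaller steps of Hapln2 rested on few arrays. The rise of 0.33 at P15 against P7 (SE 0.11, limma adjusted p 0.0337) was not called without P7 replicate 1, P7 replicate 2, P15 replicate 1 or P15 replicate 2 (0.24 to 0.37, adjusted p 0.0510 to 0.185). The rise of 0.33 at P21 against P15 (SE 0.11, adjusted p 0.0464) was lost without any 1 of 10 arrays, which are replicates 1 and 3 of P0, 2 and 3 of P7, 1, 2 and 3 of P15, 1 and 2 of P21 and 3 of P56. Its value over those fits was 0.22 to 0.36 (adjusted p 0.0501 to 0.206). The call was also lost after quantile normalization (limma adjusted p 0.0790), with array medians set to 0 (0.0754) and with array weights (0.0788). With only those ages fitted (0.0609) and in the fit without P0 (0.0571) it was lost too. The change of −0.18 at P56 against P21 was not called (adjusted p 0.183), and it was 0.11 after quantile normalization and 0.06 with array medians set to 0. The difference between P56 and P15 was not called (0.15, SE 0.11, limma adjusted p 0.245), in a comparison where 23.1% of all probe sets were called higher. Markers of myelinating oligodendrocytes had a list mean between 7.53 and 7.69 at P0, between 9.57 and 9.77 at P7, between 10.25 and 10.35 at P15, between 10.47 and 10.74 at P21 and between 9.40 and 9.53 at P56. Like Hapln2 they were higher at P7 than at P0, but 9 of 11 were lower at P56 than at P21, where Hapln2 was not called. In that step 34.3% of all probe sets were called lower. The part of these markers in the course of Hapln2 was not tested.

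Hapln1, the link protein needed for compact nets in the mouse, was highest at P15 and P21. It gave 6.63, 6.59 and 6.72 at P0, 6.40, 6.65 and 6.62 at P7, 7.30, 7.27 and 7.31 at P15, 7.50, 7.34 and 7.69 at P21, and 5.80, 6.19 and 6.21 at P56. The P56 arrays were the lowest of all, and 1 of them was under the lower quartile. Hapln1 rose by 0.74 at P15 against P7 (SE 0.11, limma adjusted p 8.58e-05) and fell by 1.45 at P56 against P21 (SE 0.11, adjusted p 4.69e-09).

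For Hapln1 the difference between P21 and P15 was not called (0.22, SE 0.11, limma adjusted p 0.189), nor was that between P7 and P0 (−0.09, adjusted p 0.497), a change that was 0.02 after quantile normalization. At P15 Hapln1 was 0.65 higher than at P0 (SE 0.11, adjusted p 3.36e-05), in a comparison where 33.5% of all probe sets were called higher. At P56 it was lower than at P0, by −0.58 (SE 0.11, adjusted p 9.76e-05). It was also lower at P56 than at P7, by −0.49 (adjusted p 0.000739), which was −0.23 and not called with array medians set to 0 (adjusted p 0.0518). The difference Hapln4 minus Hapln1 within arrays averaged −0.23 at P0, 4.39 at P7, 3.89 at P15, 3.79 at P21 and 5.25 at P56, of which only the shift between ages can be read.

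Tenascin-R, the glycoprotein that links lecticans to each other and is made by oligodendrocytes and some neurons, fell, rose and fell. Its arrays gave 10.19, 10.22 and 10.17 at P0, 8.83, 9.08 and 9.02 at P7, 9.66, 9.58 and 9.77 at P15, 9.78, 9.72 and 10.15 at P21, and 7.96, 7.91 and 8.23 at P56. The P7 arrays lay below those of P15 and P21, which overlapped each other, and the P56 arrays lay below all others. Tnr fell by 1.22 at P7 against P0 (limma adjusted p 1.67e-08), rose by 0.70 at P15 against P7 (adjusted p 0.000162) and fell by 1.85 at P56 against P21 (adjusted p 2.77e-10), with an SE of 0.11 for each. The change of 0.21 at P21 against P15 was not called (adjusted p 0.208). At P21 Tnr was still lower than at P0, by −0.31 (SE 0.11, adjusted p 0.0175), and at P56 it was lower by −2.16 (SE 0.11, adjusted p 4.35e-12).

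Counted by step, the first week had 2 of 8 members higher at P7 than at P0 (Hapln2 and Hapln4) and 4 lower (Bcan, Ncan, Vcan and Tnr). In the same comparison 33.6% of all probe sets were called higher and 28.5% lower. In the second week, P15 against P7, 3 members rose (Hapln1, Hapln2 and Tnr) and 2 fell (Ncan and Vcan), where 10.4% of all probe sets were called higher and 13.6% lower. At P21 against P15, 2 members rose (Acan and Hapln2) and 1 fell (Ncan), where 10.5% were called higher and 7.16% lower. Of these calls, both rises of Hapln2 after P7 and the fall of Ncan at P21 against P15 were lost when single arrays were left out. The rise of Hapln2 at P21 against P15 was also lost under several other settings.

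From P21 to P56, 6 of 8 members fell (Acan, Bcan, Ncan, Vcan, Hapln1 and Tnr) and 0 rose by the limma test. In that comparison 34.3% of all probe sets were called lower and 22.1% higher, and 0 of the members were higher at an unadjusted p under 0.05. The median change of the members was −1.22, against −0.03 over all probe sets. Pcp2 was higher at P56 than at P21, by 0.49 (SE 0.06, limma adjusted p 2.10e-06), and the Purkinje cell list mean was 13.41 to 13.44 at P56, against 13.16 to 13.25 at P21. A difference in capture cannot be told apart from one in expression in this step either. At P56 against P0, 2 members were higher and 5 lower, where 40.1% of all probe sets were called higher and 35.3% lower. The median change was −1.37 for the members and 0.08 over all probe sets.

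Starting from P7, when Purkinje cell markers were already high, 2 members were higher at P56 (Hapln2 and Hapln4) and the other 6 lower, Acan by the call that was lost under several settings, where 25.4% of all probe sets were called higher and 34.2% lower. Ncan was lower at P56 than at P7 by −2.55 (SE 0.07) and Vcan by −2.72 (SE 0.10), with limma adjusted p of 3.99e-14 and 3.59e-13. Tnr was lower by −0.94 (SE 0.11) and Bcan by −0.74 (SE 0.12). Pcp2 was higher at P56 than at P7, by 0.54 (SE 0.06). In the limma fit the P0 arrays enter these differences only through the pooled spread. Whether they also shaped the deposited values of the other arrays is not known, since the algorithm is not given.

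**Figure D2:**
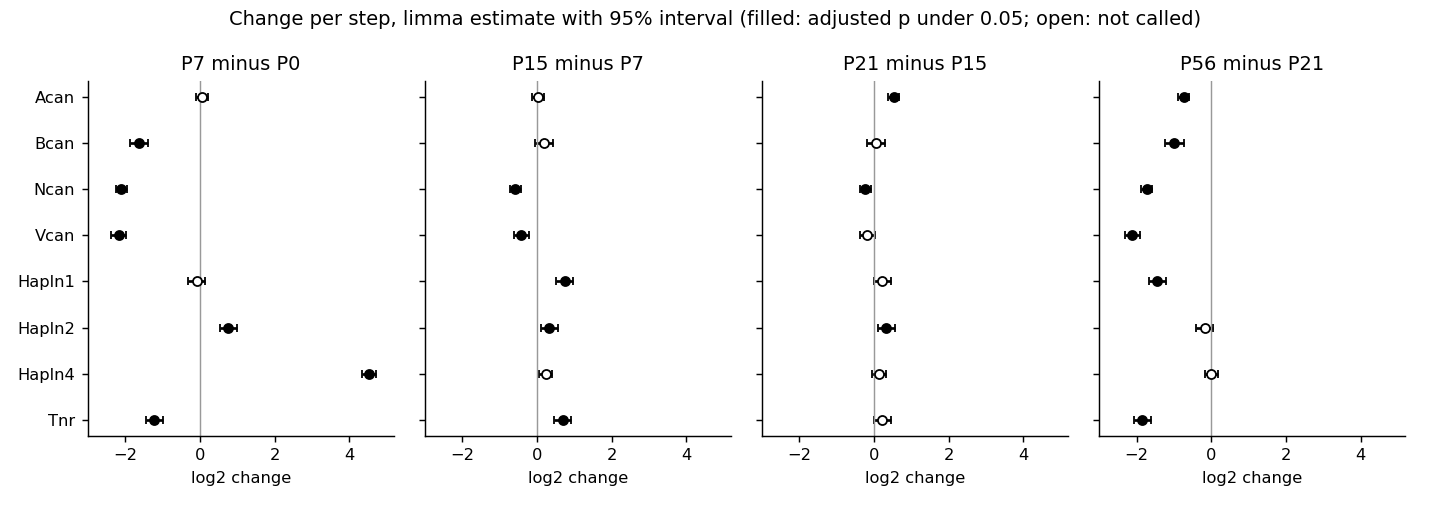
Log2 change of each gene in the 4 steps between neighbouring ages (horizontal axis), later age minus earlier age, with the 95% interval of the limma estimate. Filled points passed an adjusted p under 0.05 and open points did not. In the last panel, P56 minus P21, 6 filled points lie left of 0, and in the first panel Hapln4 lies far to the right at 4.54.

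Each of the link protein genes among the members lies beside a lectican gene in the mouse genome, with 0 protein-coding genes between them in the RefSeq annotation of GRCm38.p6. Ncan (chr8:70093085-70120863) and Hapln4 (chr8:70083529-70090862) are separated by 2.22 kb. Bcan (chr3:87987531-88002175) and Hapln2 (chr3:88020558-88027511) lie 18.4 kb apart, and Vcan (chr13:89655309-89743027) and Hapln1 (chr13:89540529-89611832) lie 43.5 kb apart. Acan (chr7:79053226-79115099) is 1.93 kb from Hapln3 (chr7:79117027-79133173), a link protein found mainly outside the nervous system.

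Ncan and Hapln4, and likewise Bcan and Hapln2, moved in opposite directions over the whole period. At P56 against P0, Ncan changed by −4.65 and Hapln4 by 4.90, and Bcan changed by −2.38 and Hapln2 by 1.25. These differences include P0, where capture and expression cannot be told apart. At P56 against P7, Ncan changed by −2.55 and Hapln4 by 0.37, and Bcan by −0.74 and Hapln2 by 0.49. Vcan and Hapln1 were both lower at P56 than at P0, by −4.89 and −0.58. Both also fell at P56 against P21, with changes of −2.11 and −1.45. At P15 against P7 they moved apart, with −0.42 for Vcan and 0.74 for Hapln1. Hapln3 averaged 6.37 ± 0.07 at P0, 6.02 ± 0.11 at P7, 6.07 ± 0.19 at P15, 6.15 ± 0.07 at P21 and 6.20 ± 0.38 at P56 (SD, n = 3), with 1 array under the lower quartile at P15 and 1 at P56. It was lower at P7 than at P0, by −0.35 (SE 0.14, limma adjusted p 0.0392), and was not called at P21 against P15, the step at which Acan rose (0.08, SE 0.14, adjusted p 0.792).

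**Figure D3:**
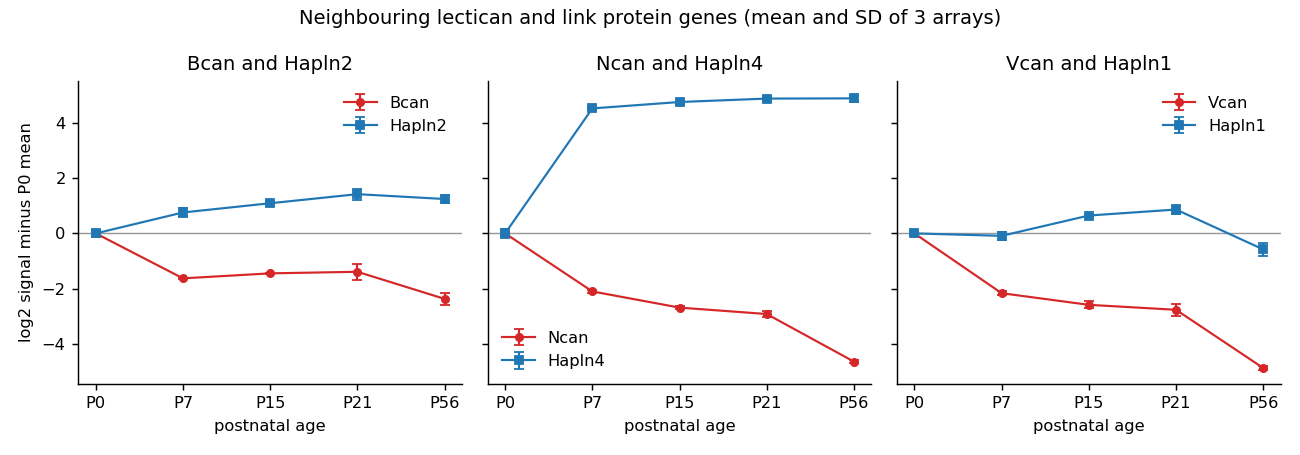
Change of log2 signal from the P0 mean (vertical axis) at the 5 ages for the 3 pairs of neighbouring lectican and link protein genes. Points are means and bars the SD over 3 arrays. Ncan and Hapln4 end at −4.65 and 4.90, and Bcan and Hapln2 at −2.38 and 1.25, while Vcan and Hapln1 both end below 0.

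Several members are known products of glia or of other neurons, so markers of those cells were read on the same arrays. Astrocyte and Bergmann glia markers (12 of 12 measured) had a list mean between 10.25 and 10.43 on all arrays of P0, P7, P15 and P21, and between 9.75 and 9.89 at P56. Of these 12 markers, 4 were higher and 7 lower at P7 than at P0, with a median change of −0.60. In the same step 33.6% of all probe sets were called higher and 28.5% lower. The near-constant mean in that step thus covers opposite moves of single markers, and does not show a steady glial signal. Aldoc averaged 12.76 at P0 and 13.64 at P7, and Hopx 8.59 and 11.66. Slc1a3 went from 12.03 to 10.61, and Fabp7 from 13.94 to 13.26. Whether Purkinje cells also make some of these markers was not tested. At P56 against P0, 5 of the 12 were higher and 7 lower, where 40.1% of all probe sets were called higher and 35.3% lower. Oligodendrocyte precursor markers (10 of 10) had a list mean between 9.33 and 9.34 at P0, between 8.71 and 9.02 on all arrays of P7, P15 and P21, and between 8.01 and 8.02 at P56. Of these, 9 were lower and 1 higher at P56 than at P21, the step at which 6 members fell. In that step 34.3% of all probe sets were called lower and 22.1% higher. The myelinating list, with 11 of 12 measured, had 0 higher and 9 lower in that step by limma (0 and 10 at an unadjusted p under 0.05).

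Markers of deep nuclear and brainstem neurons, the cells known to bear dense nets, were measured for 7 of 10 genes. Their list mean lay between 9.91 and 9.98 at P0, between 8.25 and 8.39 on all arrays of P7 and P15, between 8.75 and 8.92 at P21 and between 7.61 and 7.90 at P56. At P7 against P0, 1 of the 7 rose, Nefh (9.58 to 11.64), and 5 fell. In that step 33.6% of all probe sets were called higher and 28.5% lower. At P21 against P15, when Acan rose, 4 of the 7 rose and 0 fell by limma (4 and 0 at an unadjusted p under 0.05). Of all probe sets, 10.5% were called higher and 7.16% lower. At P56 against P21, when Acan fell, 1 rose and 5 fell, where 34.3% of all probe sets were called lower and 22.1% higher. This course was not particular to the deep nuclear list. At P21 against P15, 4 precursor, 5 myelinating and 3 interneuron markers rose, and 0, 0 and 1 fell. At P56 against P21, 9 precursor, 9 myelinating and 7 interneuron markers fell, and 1, 0 and 0 rose. Interneuron markers (10 of 10) had a list mean between 10.26 and 10.30 at P0, between 8.65 and 8.98 on all arrays of P7 and P15, between 9.11 and 9.26 at P21 and between 8.29 and 8.46 at P56. At P7 against P0, 1 interneuron marker rose, Prkcd (8.51 to 11.46), and 9 fell. Granule cell markers ran from 8.58 to 8.61 at P0 and from 10.36 to 10.99 on the later arrays.

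Endothelial and mural, meningeal and microglial lists were highest at P0. The endothelial and mural list (10 of 10) lay between 6.72 and 6.90 at P56, against 9.46 to 9.50 at P0. The meningeal list (10 of 10) lay between 7.46 and 7.55 at P56, against 9.45 to 9.47 at P0, and the microglial list (10 of 10) between 6.59 and 6.67 at P56, against 8.11 to 8.16 at P0. All 10 list means were above the lower quartiles of the arrays at every age. From P7 on, 0 astrocyte, precursor, myelinating and interneuron markers were under the lower quartile on all arrays of an age, and 1 deep nuclear marker was, at P21. Replicate 3 of P21 gave the highest value of that age for 6 of the 8 members, and it had the highest mean of that age for 9 of the 10 marker lists, all but that of Purkinje cells. The part of these cells in the changes of the members was not tested.

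**Figure D4:**
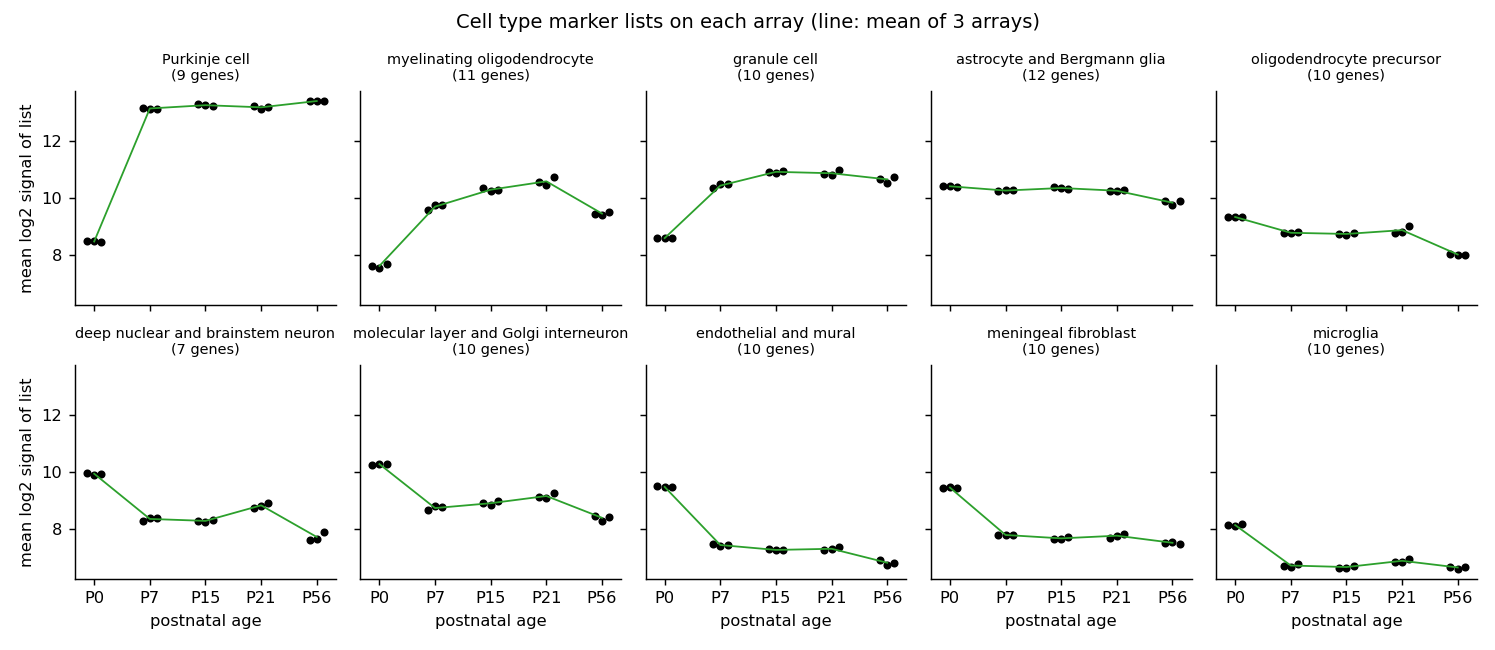
Mean log2 signal of 10 marker lists (vertical axis) on each of the 15 arrays, by age (horizontal axis), with the number of genes measured in each list. Points are arrays and the line joins the age means. The Purkinje cell list rises between P0 and P7 and stays above 13. The astrocyte, precursor, deep nuclear, interneuron, endothelial and meningeal lists are lowest at P56.

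Genes that make, bind or cut the matrix gave the surroundings of the members. Among other proteoglycans, link proteins and tenascins, 12 of 16 were lower and 1 higher at P56 than at P0, with a median change of −1.15 against 0.08 over all probe sets. In that comparison 35.3% of all probe sets were called lower and 40.1% higher. Tnc (tenascin-C), the tenascin of the immature brain, averaged 10.98, 8.71, 7.79, 7.003 and 5.98 from P0 to P56 and fell in every step. Its log2 change at P56 against P0 was −5.00 (SE 0.12, limma adjusted p 5.42e-16), with 2 of 3 P56 arrays under the lower quartile. Agrn (agrin), which organises synapses at nerve and muscle, was lower by −4.41 (SE 0.10). Ptprz1, a receptor phosphatase whose secreted form is phosphacan, was lower by −3.82 (SE 0.11), and Cspg5 (neuroglycan C) by −3.56 (SE 0.06). Of the list, Bgn, Dcn and Lum also stand among the meningeal markers and Cspg4 among the precursor markers.

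Hyaluronan, the backbone of the mesh, is made at the cell surface by the Has enzymes. Has1 averaged 7.04, 7.65, 7.71, 7.65 and 7.05 from P0 to P56, rose by 0.61 at P7 against P0 and fell by 0.61 at P56 against P21 (SE 0.10 each). Has2 fell by 0.91 at P7 against P0 and fell by 0.60 at P15 against P7 (SE 0.10 each), and all of its arrays from P7 on were under the lower quartile. Has3 held at 7.09, 6.98, 6.82 and 6.88 until P21 and fell by 0.96 at P56 against P21 (SE 0.12). At P56, 2 of 3 Has3 arrays were under the lower quartile, so the size of that fall is uncertain. Of the hyaluronan list, 12 of 13 genes were measured, and 8 were lower and 0 higher at P56 than at P0 by limma (8 and 1 at an unadjusted p under 0.05). In that comparison 35.3% of all probe sets were called lower and 40.1% higher. The median change was −0.53 for the list and 0.08 over all probe sets. The list also named Lyve1, a hyaluronan receptor of lymphatic vessels and some macrophages, lower by −2.003 (SE 0.10), and Cemip2, reported as a hyaluronan-degrading enzyme of the cell surface, lower by −1.69 (SE 0.07).

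Chondroitin sulfate chains are built on the lecticans by a set of transferases. Of 21 such genes measured, 12 were lower and 6 higher at P56 than at P0, with a median change of −0.49 against 0.08 over all probe sets. In that comparison 35.3% of all probe sets were called lower and 40.1% higher. Xylt1, which starts the chain, was lower by −2.55 (SE 0.11). Chsy1 and Chsy3, which extend it, were lower by −2.65 (SE 0.07) and −2.28 (SE 0.13), and Dsel, which converts it to dermatan sulfate, by −1.76 (SE 0.11). In the step from P21 to P56, 13 of the 21 fell and 1 rose, where 34.3% of all probe sets were called lower and 22.1% higher.

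Receptors and partners of the matrix had 13 of 18 genes lower and 3 higher at P56 than at P0. In that comparison 35.3% of all probe sets were called lower and 40.1% higher. The median change was −1.24 for the list and 0.08 over all probe sets. Ptprf and Ptprd, receptor phosphatases of the family that binds chondroitin sulfate, were lower by −3.42 (SE 0.07) and −2.98 (SE 0.10). Otx2, a homeoprotein that binds nets, was lower by −2.94 (SE 0.10). Nptx1, a pentraxin that gathers glutamate receptors at synapses, was higher by 3.11 (SE 0.08).

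Among proteases and their inhibitors, 16 of 22 were lower and 4 higher at P56 than at P0, with a median change of −0.71 against 0.08 over all probe sets. In that comparison 35.3% of all probe sets were called lower and 40.1% higher. Adamts4, a protease that cuts lecticans, averaged 7.31, 9.89, 10.18, 10.17 and 9.72 from P0 to P56. It rose by 2.58 at P7 against P0 and fell by 0.45 at P56 against P21 (SE 0.06 each). The inhibitors Timp2 and Timp3 were lower at P56 than at P0 by −3.45 (SE 0.10) and −3.35 (SE 0.12). Mmp16, a membrane metalloprotease, was lower by −2.87 (SE 0.07), and Plat, tissue plasminogen activator, by −2.59 (SE 0.13).

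**Figure D5:**
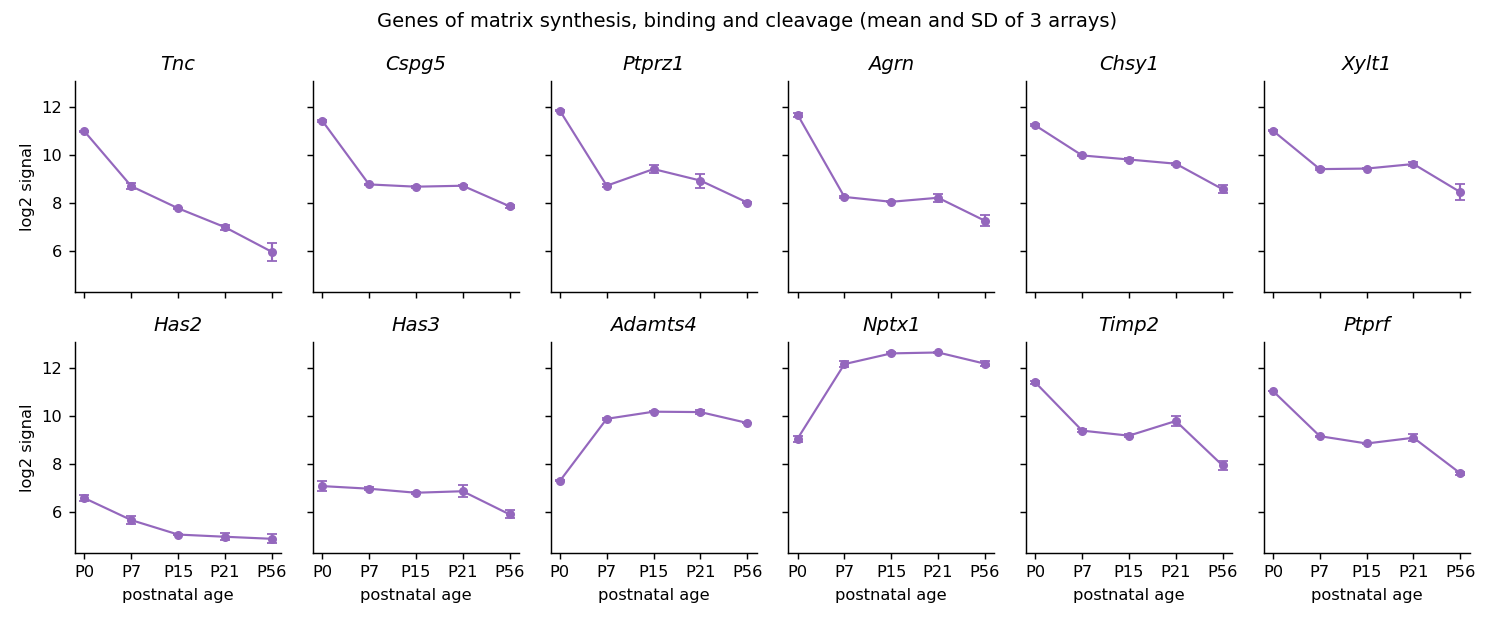
Log2 signal of 12 genes of matrix synthesis, binding and cleavage (vertical axis) at the 5 ages (horizontal axis). Points are means and bars the SD over 3 arrays. Tnc steps down at every age to 5.98, whereas Adamts4 and Nptx1 are lowest at P0.

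The genes whose course was most like that of a member were found by Pearson r over the 15 arrays among 6499 genes whose age means span at least 1. Because the arrays form 5 ages, r mostly compares 5 age means, and it is given as a description. Hapln4 was most like Rgs8 (0.999), a Purkinje cell marker of the list above, followed by Kcnab1 (0.999) and Doc2b (0.998). Ncan was most like Pafah1b3, Fam149a (0.997 each) and Alcam (0.996). Vcan was most like Grm5 (0.997), Nexmif and Casp2 (0.996 each).

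Bcan was most like Plat (0.993), Fam163a and Myo9b (0.990 each), and Tnr was most like Alms1 (0.991), Pomt2 (0.989) and Zmpste24 (0.985). For Hapln2 the first 3 were Pde7b, Ppcdc (0.978 each) and Ksr2 (0.972), and for Hapln1 they were Tmem62 (0.961), Myo6 (0.948) and Layn (0.943). Acan had Sipa1l1 (0.943), Denn2b (0.931) and Micalcl (0.930).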

How the data were processed

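RNA purified through tagged ribosomes was hybridised to Affymetrix arrays, 15 in all, 3 at each of 5 ages. The values used are log2 signals, one for each probe set, as deposited by the authors, and Affymetrix Power Tools is named per the submitters' processing notes. Neither its algorithm and version nor the base of the logarithm is given in the sources. The base was read as 2 from the range of values, 3.15 to 14.08. Values were used as deposited, with no probe set removed. The 2016 annotation gave 1 symbol to 20996 of 22092 probe sets, several to 91 and none to 1005. For a gene with several probe sets, the one with the highest mean over all arrays was used.

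Ages were compared with limma 3.58.1 (R 4.3.3) in a model of the 15 arrays with 1 mean for each age (10 residual degrees of freedom plus 6.5 from the prior). Tests were two-sided and adjusted by Benjamini-Hochberg within each comparison over all probe sets. SE is that of the fit. Arrays have no read depth, so their number sets the precision. The labels give no batch, and batch and age cannot be told apart if they coincide. Genes named are the 8 members, up to 4 called genes per matrix list with the largest change at P56 against P0 (up to 3 in other comparisons), Has1, Has2, Has3, Tnc, Cspg5, Ptprz1, Hapln3 and Adamts4, and 3 like genes per member. Hapln4 has no entry in the promoter table. The members and lists were chosen with earlier results of these data known. The fit was tested on simulated data. The settings varied were the scaling (quantile normalization, or array medians set to 0), the weights of arrays, the variance prior (trended and robust), the replicate number as a block, the probe sets tested (without the dimmest 50%, 1 for each gene, or their mean), a minimum change of 1, the ages in the fit, and the arrays, each left out in turn. Fits without P0 and without P21 were added after seeing the data. Plots were made in Python 3.11.15 with matplotlib 3.10.9.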

Additional observations from a re-analysis of the deposited data

How the results depend on the processing

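Of 1246 changes of a member under an alternative, 1175 kept their direction and their side of the threshold, 48 lost a call, 14 gained one and 9 changed direction. The changes of direction were Hapln1 at P7 against P0 (0.017) and Hapln2 at P56 against P21 (0.11) after quantile normalization, and Hapln2 at P56 against P21 (0.059), Acan at P56 against P0 (0.19) and Acan at P56 against P7 (0.072) with array medians set to 0. With an array left out, Acan ranged from −0.018 to 0.052 at P15 against P7, Bcan from −0.11 to 0.16 at P21 against P15 and Hapln4 from −0.065 to 0.060 at P56 against P21. Setting array medians to 0 moved the median change of all probe sets to 0.41 at P56 against P0 and 0.21 at P56 against P21, against 0.08 and −0.03 as deposited. The share of higher calls among all calls then became 70.2% at P56 against P0 (53.2% as deposited), 69.1% at P56 against P21 (39.3%), 71.9% at P56 against P7 (42.5%), 62.2% at P15 against P7 (43.3%) and 45.9% at P21 against P15 (59.5%). After quantile normalization it was 49.96% at P56 against P21.

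With the dimmest 50% of probe sets removed, 1 member was higher at P7 against P0, 0 at P21 against P15, 1 at P56 against P0 and 1 at P56 against P7, since dim members were no longer tested, and 9690 probe sets were called at P56 against P0 and 8516 at P56 against P7 (16647 and 13167 in the fit of all probe sets). With a minimum change of 1, members called higher numbered 1 at P7 against P0, 0 at P15 against P7, 0 at P21 against P15 and 0 at P56 against P7. Members called lower then numbered 0 at P15 against P7, 0 at P21 against P15 and 2 at P56 against P7. At P56 against P21 the falls of Acan (−0.74) and Bcan (−0.98) were no longer called. At P56 against P0 that of Hapln1 (−0.58) was lost. Probe sets called numbered 4372 at P7 against P0 (13714 without the minimum), 178 at P15 against P7 (5305), 88 at P21 against P15 (3903), 1670 at P56 against P21 (12464), 5958 at P56 against P0 (16647) and 1960 at P56 against P7 (13167). With only the arrays of the ages compared, 5 members were higher at P15 against P7, where 6960 probe sets were called (5305 in the main fit). In that setting 1 member was higher and 0 lower at P21 against P15, where 3040 probe sets were called (3903). At P21 against P15, 1 member was higher after quantile normalization, with array medians set to 0, with array weights and in the fit of the 12 arrays without P0. Probe sets called there numbered 3977, 4111, 3844 and 3379, in that order. With array medians set to 0, 1 member was higher at P56 against P21, where 15963 probe sets were called (12464). Leaving out each array gave 1 to 2 members higher and 0 to 2 lower at P21 against P15, with 2754 to 4475 probe sets called. The cause of these shifts was otherwise not tested.

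The replicate block changed no call of a member, and it called 16619 probe sets at P56 against P0 and 5235 at P15 against P7. Deviations from the age mean correlated at −0.31 to 0.45 over 30 pairs of the same number and different age (median −0.003). Over 60 pairs of different number and age they correlated at −0.42 to 0.24 (median 0.002). The medians show no pairing by number over all ages, but they cannot exclude it between some ages. Signals near the lower quartile, as for Acan, Vcan and Hapln1 at P56 and Hapln4 at P0, limit what the size of a change can show.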
